A study of Sus scrofa with 6 samples.

Results

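SS18 and 9 further genes of the BAF chromatin remodelling complex were examined in porcine 2-cell embryos after knockdown of SIN3A and in control embryos. The members were SS18, its paralog SS18L1, and SMARCA4, SMARCA2, SMARCB1, ARID1A, SMARCC1, SMARCC2, SMARCD1 and SMARCE1. They were found by their gene names in the deposited table, where all 10 of them are listed among 17678 genes. SS18 had been picked because it was higher in KD embryos in this same comparison, so its difference is given as a description without a test. The other 9 were listed as members of the complex, with earlier results of these data known. For them the question was whether they followed SS18.

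Oocytes of crossbred pigs (Landrace × Yorkshire × Duroc) from slaughterhouse ovaries were matured in vitro, stripped of cumulus cells, injected at metaphase II and then activated parthenogenetically, so that all embryos of both groups lack a paternal genome. The NC group received a nonspecific negative control siRNA, and the SIN3A KD group received siRNAs to several sites of SIN3A. Embryos were collected as 2-cell embryos 32 h after activation, in 3 replicates of 20 pooled embryos per group, and polyadenylated RNA was sequenced. The paper calls the 3 replicates independent, but neither it nor the labels say whether they came from separate collections of oocytes. The p-values measure only the spread between these 6 libraries. Values of single libraries are listed below in the order of their replicate numbers.

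BAF complexes, the mammalian relatives of the yeast SWI/SNF remodeller, use the energy of ATP to slide or evict nucleosomes and so open DNA to other factors. Each assembly is built around one ATPase, SMARCA4 (BRG1) or SMARCA2 (BRM), on a scaffold of SMARCC and SMARCD proteins. ARID1 and DPF proteins mark canonical BAF, ARID2, PBRM1, BRD7 and PHF10 mark PBAF, and BRD9 with BICRA or BICRAL marks non-canonical BAF (ncBAF). SS18, known from the fusion gene of synovial sarcoma, is a subunit of canonical BAF and ncBAF and is not found in PBAF. In mouse, maternally stored SMARCA4 is needed for activation of the embryonic genome. The pig embryo at this stage still lives largely on transcripts stored in the oocyte.

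The values are the authors' normalized abundances, read estimates per gene scaled between libraries, and they have no fixed sum. The spacing of the low values put the depth at 7700000 to 15700000 reads per library. SIN3A itself lay between 32404 and 37361 in the NC libraries and between 1079 and 4173 in the KD libraries, a ratio of the means of 0.0822 in the direction of the labels. Of 11 oocyte and embryo markers, 9 were found by name and 8 had a mean of at least 10, with BMP15 and H1FOO between 18001 and 24453 in every library. Of 12 cumulus and granulosa cell markers, 11 were found and 3, VCAN, INHBA and STAR, had a mean of at least 10. The summed level of the 11 was 805 to 967 in NC and 772 to 901 in KD libraries, nearly all of it VCAN. Without VCAN the sum was 36.5 to 72.4 over all libraries. INHBA had means of 14.9 in NC and 9.38 in KD, and STAR had 13.3 and 17.6. CYP19A1, CYP11A1 and AMH, defining genes of those cells, had means of at most 7.74 in either group. The comparison by limma on log2(value + 1) covered the 11986 genes whose mean was 10 or more, and all 10 members were among them. SS18 was fitted with the rest, but no p is given for it. Over all genes tested, 19 (0.159%) had an adjusted p below 0.05, of which 7 (0.0584%) were higher in KD.

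SS18 was higher in every KD library than in every NC library, the difference for which it was picked, and is given without a test. None of the other 9 members had an adjusted p below 0.05. SS18 (ENSSSCG00000003716) is a gene of the minus strand of chromosome 6, from 110711438 to 110789805 in Sscrofa11.1, the build of all positions given here. Its normalized abundance was 673, 528 and 756 in the NC libraries and 1278, 1131 and 1185 in the KD libraries. The lowest KD library thus stood well above the highest NC library. NC embryos had a mean of 652 ± 116 and KD embryos one of 1198 ± 74.7 (SD, n = 3 each), a ratio of 1.84. On the log2(value + 1) scale the difference was 0.89 with a standard error of 0.13 and a 95% confidence interval of 0.63 to 1.16. The interval makes no allowance for the choice of SS18 by this same contrast, so it is not read as a test. These values rest on an estimated 356 to 1567 reads per library. In pooled embryos, a difference shared by all cells and a larger one in only some embryos or cells cannot be told apart.

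**Figure D1:**
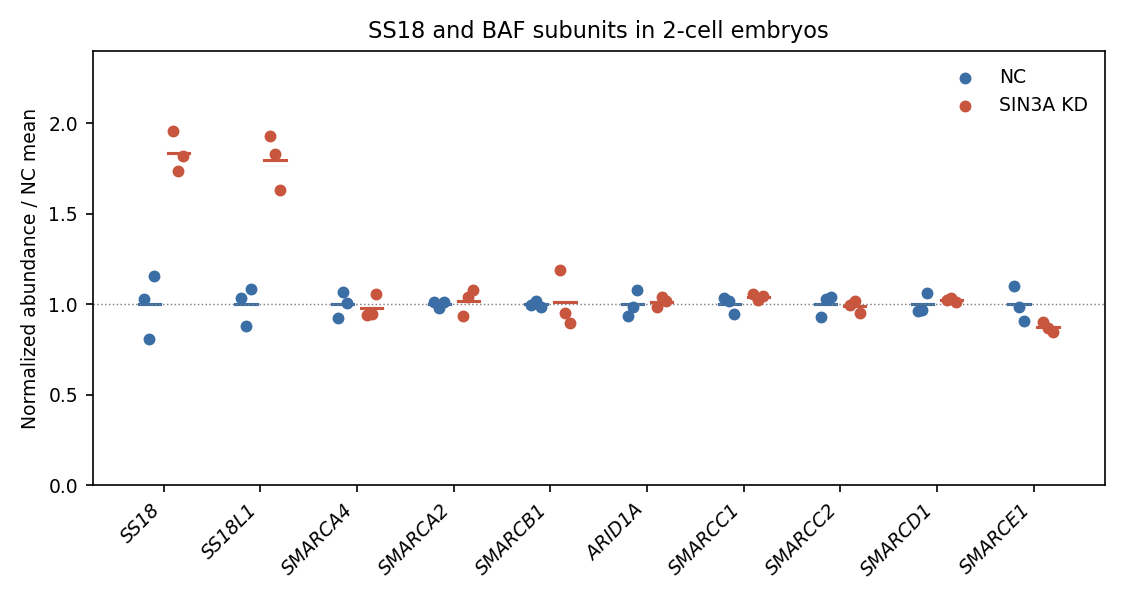
Normalized abundance of the 10 genes in each library, divided by the NC mean of the gene, with NC libraries in blue, SIN3A KD libraries in red and short lines at the group means (3 libraries per group). SS18 and SS18L1 stand near 1.8 times their NC mean in KD embryos, while the KD means of the other 8 genes lie between 0.874 and 1.04 times the NC mean.

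SS18L1 (CREST), the paralog that can take the place of SS18 and is best known from neurons, gave a difference of similar size at a far lower level. The gene (ENSSSCG00000035448) is on the plus strand of chromosome 17 between 61571619 and 61598104. Its normalized abundance was 16.8, 14.3 and 17.6 in the NC libraries and 31.3, 29.7 and 26.5 in the KD libraries. Again the groups did not overlap, and the KD mean of 29.2 ± 2.43 was 1.8 times the NC mean of 16.2 ± 1.72 (SD, n = 3 each). The log2 fold change was 0.81 with a standard error of 0.36 and a 95% confidence interval of 0.05 to 1.57. This did not pass the test over all genes (adjusted p = 0.997 and unadjusted p = 0.0378 from limma). The interval included 0, and the unadjusted call was lost, when any 1 library other than KD replicate 3 was left out (lower ends of -0.16 to -0.0011) and without the filter on low values (lower end of -0.020). The exact two-sided permutation test gave p = 0.1, the smallest that 3 libraries against 3 allow. An estimated 10 to 41 reads per library stand behind these values, against at least 356 for SS18. Groups that do not overlap were found in 1173 of the 11986 genes tested (9.79%), with KD higher in 4.85% and lower in 4.94%. They were found in 2 of the 9 members other than SS18, with SS18L1 higher and SMARCE1 lower in KD.

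To see whether reads of SS18 could be assigned to SS18L1, their longest RefSeq mRNAs were compared. The deposited values carry Ensembl gene identifiers, so the transcripts used by Salmon may differ from these mRNAs. Of the 2921 distinct 31-base words in the SS18 mRNA of 2951 bases, 0 occur in the same orientation in the transcripts of any other annotated gene, and 0 are shared with the SS18L1 mRNA of 6300 bases. The longest identical stretch of the pair measures 17 bases, shorter than the 31 bases that Salmon indexes by default. It lies in the coding sequence of both genes, and the bases shown, which span an exon junction, lie on chromosome 6 between 110724885 and 110728723 (minus strand) for SS18 and on chromosome 17 between 61591877 and 61593069 (plus strand) for SS18L1. The sequences are shown as the longest identical stretch found between the mRNAs of the pair. Each reads 5′ to 3′ along the mRNA, with the identical bases in capitals and 3 further bases on each side in lower case.
SS18: ggaCAGCAGCAGGGCTACGGtcc
SS18L1: gggCAGCAGCAGGGCTACGGgcc
SS18L1 shared 114 of its 6270 words (1.82%) with transcripts of 401 other genes, none of them SS18, and their part in its value was not tested.

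The ATPases did not pass the test, and their libraries overlapped between the groups. SMARCA4 (ENSSSCG00000013629, chromosome 2 from 69717175 to 69810301) stood at 653, 758 and 713 in the NC libraries and at 665, 671 and 749 in the KD libraries. All KD values fell within the NC range. Its log2 fold change was -0.026 with a 95% confidence interval of -0.26 to 0.21 (adjusted p = 0.997 from limma). SMARCA2 (ENSSSCG00000005232, chromosome 1 from 219624773 to 219815438) stood at 542, 525 and 542 in the NC libraries and at 502, 558 and 579 in the KD libraries. Its KD values lay on both sides of the NC values, and the log2 fold change was 0.024 with a 95% confidence interval of -0.21 to 0.26 (adjusted p = 0.997). Exons of SMARCA4 share 127 bases with the annotated antisense transcript LOC110259342, whose reads could not be told apart without strand, which is not stated, and 2.73% of the 31-base words of its longest mRNA occur in other genes.

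The scaffold subunits SMARCC1, SMARCC2 and SMARCD1 did not pass the test either. SMARCC1 (ENSSSCG00000011340, chromosome 13 from 30409979 to 30576270) and SMARCC2 (ENSSSCG00000000382, chromosome 5 from 21563426 to 21586790) form the dimer on which the complex is assembled. SMARCC1 had normalized abundances of 2862, 2827 and 2628 in NC and 2930, 2841 and 2900 in the KD libraries. SMARCC2 had 2552, 2833 and 2864 in NC and 2745, 2797 and 2622 in the KD libraries. Both genes overlapped between the groups, with log2 fold changes of 0.061 (95% confidence interval -0.12 to 0.24) for SMARCC1 and -0.014 (-0.20 to 0.17) for SMARCC2. SMARCD1, which links the complex to transcription factors (ENSSSCG00000000215, chromosome 5 from 15992348 to 16005778), had 2686, 2704 and 2962 in NC and 2850, 2881 and 2824 in the KD libraries. Its KD libraries lay close together within the NC range, and the log2 fold change was 0.036 (-0.14 to 0.22). Each of these genes had an adjusted p of 0.997 from limma.

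SMARCB1 (ENSSSCG00000010070, chromosome 14 from 49874981 to 49906043), the subunit that contacts the acidic face of the nucleosome, had 930, 950 and 917 in NC and 1107, 886 and 838 in the KD libraries. The KD libraries were spread much wider than the NC libraries, with SDs of 144 and 16.9, and KD replicate 1 was the highest of all. The log2 fold change was 0.0070 with a 95% confidence interval of -0.23 to 0.25 (adjusted p = 0.998 from limma). SMARCB1 shares 42 exonic bases with DERL3 on the opposite strand. ARID1A (ENSSSCG00000003559, chromosome 6 from 84049729 to 84124302), the large DNA-binding subunit that defines canonical BAF, had 11466, 12037 and 13180 in NC and 12071, 12692 and 12466 in the KD libraries. All KD values of ARID1A were inside the NC range, and its log2 fold change was 0.023 (-0.15 to 0.20, adjusted p = 0.997).

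SMARCE1, an HMG-box subunit (ENSSSCG00000039137, chromosome 12 from 21784410 to 21807170), was the member whose KD values were all lower. It had 493, 441 and 406 in NC and 404, 389 and 379 in the KD libraries. The highest KD library was only just below the lowest NC library. The log2 fold change was -0.19 with a standard error of 0.12 and a 95% confidence interval of -0.45 to 0.07 (adjusted p = 0.997 from limma, and p = 0.1 by the exact two-sided permutation test, its smallest possible value).

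Of the 9 members other than SS18, 0 had an adjusted p below 0.05 by limma and 1, SS18L1, had an unadjusted p below 0.05 (lost under the settings given above), against 0.159% and 4.61% of all genes tested. Their median log2 fold change was 0.023, beside 0.0026 over all genes. For the 8 members without SS18L1, the log2 fold changes ran from -0.19 to 0.061 and their 95% confidence intervals from -0.45 to 0.26. The interval of SS18L1 was wider, at 0.05 to 1.57. The difference between SS18 and the other members was not tested, since SS18 was chosen by this contrast.

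**Figure D2:**
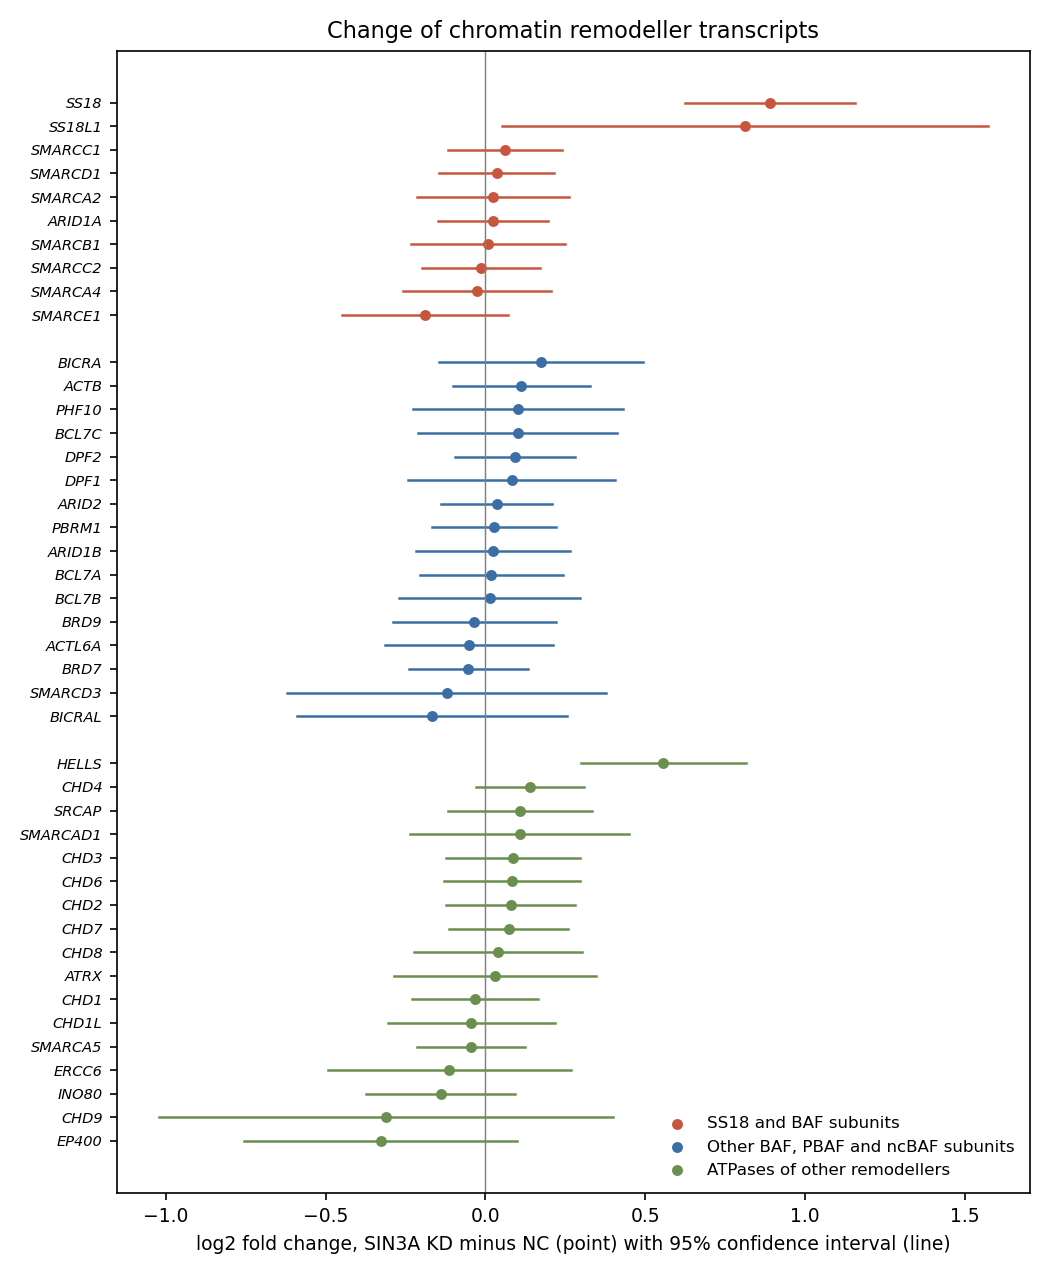
Log2 fold change of KD against NC (points) with 95% confidence intervals from limma (lines) for the 10 genes, 16 further subunits of BAF, PBAF and ncBAF, and 17 ATPases of other remodellers, all with 3 libraries per group. SS18, chosen for its difference in this comparison, is at 0.89 and is given without a test. SS18L1 is at 0.81 (adjusted p = 0.997) and HELLS at 0.56 (adjusted p = 0.135). Among the genes shown without SS18, none had an adjusted p below 0.05 by limma.

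Levels of different genes were compared per kb of the longest RefSeq mRNA, whose length may differ from that of the transcripts used by Salmon. In NC embryos ARID1A was the most abundant member at 1479 ± 106 normalized abundance per kb (SD, n = 3), followed by SMARCD1 at 772 ± 42.8. SMARCC2 at 570 ± 35.7 and SMARCB1 at 560 ± 10.2 overlapped, and SMARCC1 followed at 490 ± 22.3. SS18 came next at 221 ± 39.2 and lay above SMARCE1 at 156 ± 15.2. The ATPases were lower still, SMARCA4 at 105 ± 7.81 and SMARCA2 at 88.5 ± 1.65, and SS18L1 was at 2.57 ± 0.274. Apart from SMARCC2 and SMARCB1, neighbours in this order did not overlap in any NC library. The order of the means in KD embryos was the same but for SMARCB1 and SMARCC2, which again overlapped and exchanged places. SMARCB1, at 503 to 665 per kb in the KD libraries, also overlapped SMARCC1 at 502 to 518. SS18 held its place in the order at 406 ± 25.3 per kb, between SMARCC1 at 511 ± 8.0 and SMARCE1 at 137 ± 4.37.

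**Figure D3:**
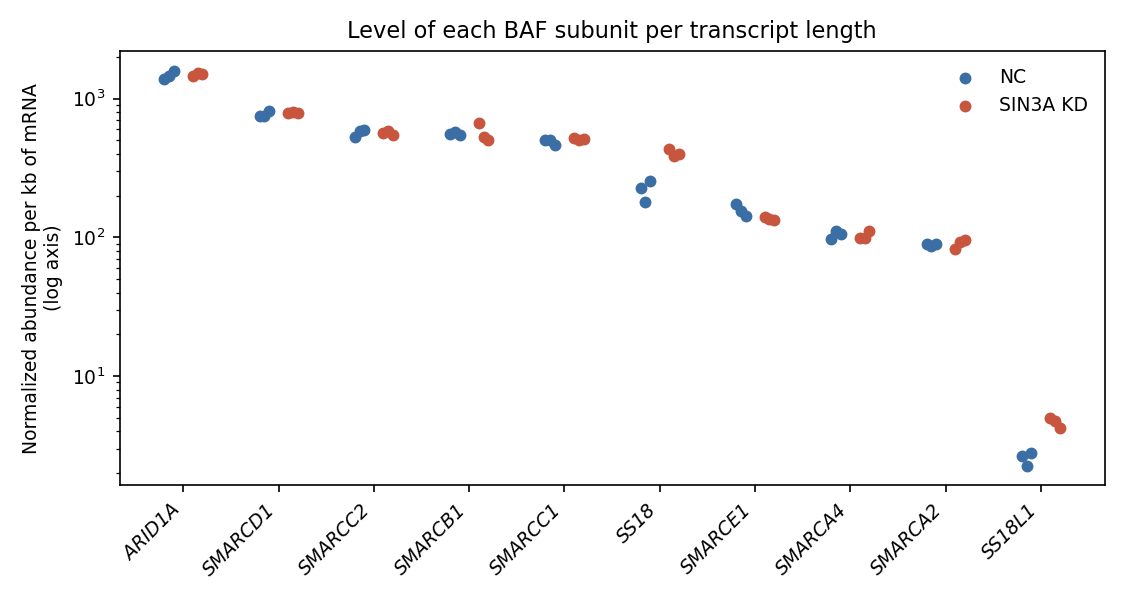
Normalized abundance per kb of the longest RefSeq mRNA for each of the 10 genes in each library on a log axis, NC in blue and SIN3A KD in red, ordered by the NC mean. ARID1A is highest at 1479 per kb in NC and 1501 in KD, SS18L1 is lowest at 2.57 in NC and 4.63 in KD, and SS18 moves from 221 to 406 without passing SMARCC1.

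Subunits were also compared with each other within each library, by ratios of levels per kb. SMARCA4 and SMARCA2 exclude each other within a complex, as do ARID1A and ARID1B, whereas SMARCC1 and SMARCC2 can occur together. SMARCA4 exceeded SMARCA2 in every library, by 1.19 ± 0.108 in NC and 1.14 ± 0.0565 in KD embryos (SD, n = 3 each). ARID1A exceeded its paralog ARID1B by 20.3 ± 1.23 in NC and by 20.3 ± 1.17 in KD. The ratio of SMARCC2 to SMARCC1 was 1.17 ± 0.116 in NC and 1.11 ± 0.0475 in KD. Exact two-sided permutation tests of these 3 ratios gave p = 0.6 for SMARCA4 to SMARCA2, 1.0 for ARID1A to ARID1B and 0.5 for SMARCC2 to SMARCC1, or 0.9, 1.0 and 0.9 after Benjamini-Hochberg adjustment. Ratios with SS18 are given as a description only. SS18 relative to the summed ATPases was 1.22, 0.898 and 1.31 in NC and 2.38, 2.0 and 1.94 in the KD libraries, so the groups did not overlap. Relative to SMARCB1 it was 0.395 ± 0.0768 in NC and 0.723 ± 0.0733 in KD. Relative to SS18L1, in contrast, it was 85.5 ± 6.45 in NC and 88.0 ± 7.07 in KD embryos, with overlapping libraries.

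**Figure D4:**
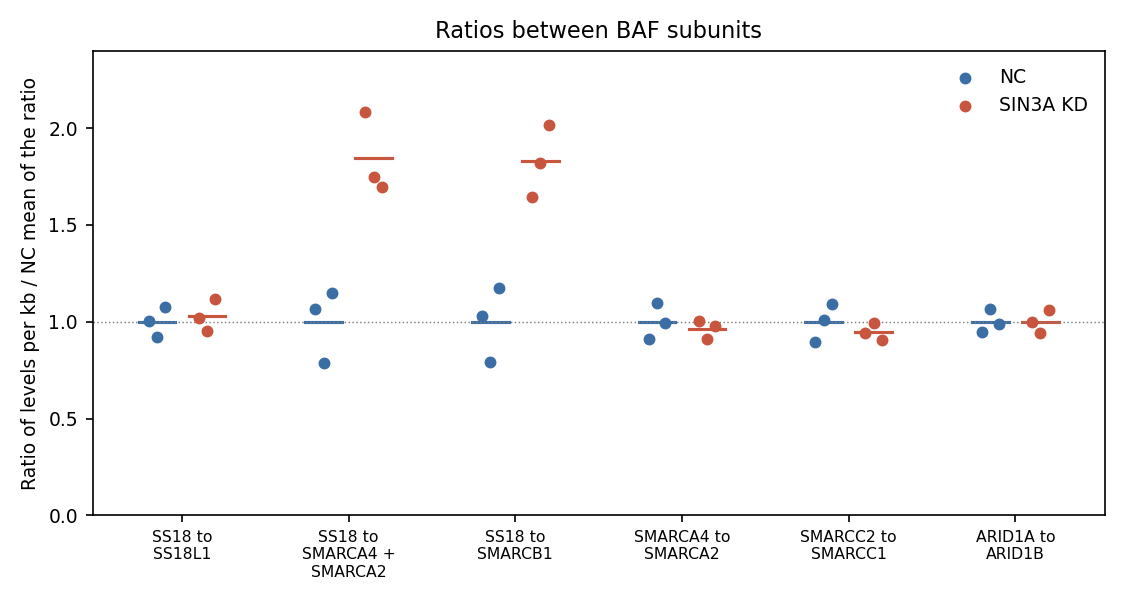
Ratios of levels per kb between subunits in each library, divided by the NC mean of the ratio, NC in blue and SIN3A KD in red with lines at the group means (3 libraries per group). SS18 relative to the ATPases or to SMARCB1 is higher in every KD library, while its ratio to SS18L1 and the ratios of the other paralogs overlap between groups. As SS18 was chosen for its difference between these groups, its ratios are a description only.

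The rest of the complex was read from a list of 21 further subunits, of which 20 were found and 16 had a mean of at least 10. In these 16 genes 0 had an adjusted p below 0.05 by limma, 0 had an unadjusted p below 0.05, and 0 had groups that did not overlap. Over all genes tested the shares were 0.159%, 4.61% and 9.79%, so counts of 0 in 16 genes do not set the list apart. The median log2 fold change of the 16 was 0.025, with 11 positive and 5 negative values. Among the marks of canonical BAF, DPF2, a reader of histone tails, was abundant at 5549 ± 382 in NC and 5923 ± 450 in KD (log2 fold change 0.093). ARID1B stood at 626 ± 54.2 and 636 ± 45.5. For PBAF, the DNA-binding subunit ARID2 had 4037 ± 117 in NC and 4141 ± 175 in KD, and the bromodomain protein PBRM1 had 2270 ± 190 and 2310 ± 103. BRD7, another bromodomain subunit of PBAF, was at 7825 ± 625 and 7537 ± 513, which per kb made it the most abundant subunit measured, at 3363 ± 269 in NC. PHF10 was at 382 ± 69.3 and 409 ± 69.7 (SD, n = 3 each).

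For ncBAF, the bromodomain subunit BRD9 was at 529 ± 57.3 in NC and 515 ± 30.9 in KD. BICRA, a defining subunit of ncBAF, gave the highest log2 fold change of the list at 0.17 (95% confidence interval -0.14 to 0.49). Its values were 1462, 2618 and 2273 in NC and 2302, 2398 and 2263 in the KD libraries, with NC replicate 1 lower than the other 5 libraries. Its paralog BICRAL gave the lowest at -0.17 (-0.59 to 0.26), with 115 ± 23.4 in NC and 101 ± 8.57 in KD. ACTB and PHF10 followed BICRA at 0.11 and 0.10, and SMARCD3 and BRD7 were next to BICRAL at -0.12 and -0.053. SMARCD3, the SMARCD form known from muscle and heart, was scarce at 60.7 ± 4.78 and 55.8 ± 5.36. Of the subunits known from neural and lymphoid complexes, DPF3, ACTL6B, BCL11A and BCL11B had means of at most 13.4 in either group and were not tested. DPF1, also known from neural complexes, was not scarce, at 409 ± 87.0 in NC and 427 ± 37.8 in KD. Its log2 fold change was 0.082 (adjusted p = 0.997 from limma).

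ATPases of other remodellers served as a comparison. All 19 were found, 17 were tested, and 0 had an adjusted p below 0.05 by limma, while 1, HELLS, had an unadjusted p below 0.05. Groups did not overlap in 2 of the 17, HELLS and CHD4. Over all genes tested the shares were 0.159%, 4.61% and 9.79%, so these counts do not set the list apart. The median log2 fold change of the 17 was 0.039. HELLS, an ATPase required for DNA methylation at repeats, stood at 387, 332 and 353 in the NC libraries and at 546, 485 and 546 in the KD libraries. Its groups did not overlap, with a log2 fold change of 0.56 and a 95% confidence interval of 0.30 to 0.82, but its adjusted p was 0.135. CHD4, the ATPase of the NuRD complex, followed at 0.14, with 5324 ± 180 in NC and 5865 ± 192 in KD, again without overlap of the groups (adjusted p = 0.997). SRCAP was next at 0.11. The lowest values were those of EP400 at -0.33, CHD9 at -0.31 and INO80 at -0.14, none past the test and all with overlapping groups. SMARCA5, the ISWI ATPase, was the most abundant of this list at 6838 ± 346 in NC and 6621 ± 37.4 in KD (SD, n = 3 each).

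The genes whose profile over the 6 libraries was most like that of SS18 were sought by Pearson's r of the log2 values among all genes tested. They were AP1B1 (r = 0.993), an adaptor of clathrin coats, FAM3D (0.985), RCOR1 (0.981), a corepressor of the CoREST complex, SS18L1 (0.981) and GABARAPL1 (0.976), an autophagy protein. AP1B1 differed little between the groups, with 2418 ± 39.3 in NC and 2607 ± 18.7 in KD, and RCOR1 had 2885 ± 88.8 and 3274 ± 94.0. FAM3D was near the filter on low values, at 8.97 ± 1.47 in NC and 16.2 ± 0.538 in KD. The 6 points share a single contrast, for which SS18 was chosen, so these values are a description only. The remaining 8 members had r from -0.735 for SMARCE1 to 0.541 for SMARCD1.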

How the data were processed

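Per the labels and the methods, the authors quantified pig transcripts of the build Sscrofa11.1 by Salmon 0.14.1 and used DESeq2 to compare the groups. The annotation release was not given in the sources used here. The deposited table holds 1 signal value per gene and library, a read estimate normalized between libraries by the authors. Of the values below 10, 81.2% to 87.1% lay within 5% of a whole number of reads, too few to treat them as counts. Depth was estimated as the sum of a library divided by the value of 1 read. Fold changes of low genes are the least precise.

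For genes whose mean was 10 or more, log2(value + 1) was fitted in R 4.3.3 by limma 3.58.1, with a trend of the variance and Benjamini-Hochberg adjustment over all of them. The scale understates changes of low genes. Single values were compared by exact permutation. Python 3.11.15, numpy 2.4.6, pandas 2.3.3, pysam 0.24.0 and matplotlib 3.10.9 were used for the rest. Positions, mRNA lengths and sequences come from RefSeq of Sscrofa11.1, with all 10 members matched by symbol. CHD2, CHD4, SRCAP and HAS2 were recognised by gene identifier. SMARCD2, NLRP5, DPPA3 and FSHR were not found by name and are not analysed here.

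The members and lists were chosen with earlier results of these data known. Named genes were the members, SIN3A, the 3 highest and 3 lowest fold changes and the paralogs or assembly marks of the lists, and the 5 genes most like SS18. SMARCA5, DPF1, DPF3, ACTL6B, BCL11A and BCL11B were named after their values were seen. Alternatives were other pseudocounts, filters and scalings, the variance model, the replicate block, each library left out, and median mRNA lengths.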

Additional observations from a re-analysis of the deposited data

How the results depend on the processing

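In all 15 alternative settings, 0 of the 9 members other than SS18, 0 of the other subunits and 0 of the ATPases of other remodellers had an adjusted p below 0.05. Among all genes tested, 0 to 26 had one, depending on the setting. Over these settings the lowest adjusted p of limma was 0.477 for SS18L1, without the variance trend, and 0.0658 for HELLS, with the replicate block. That setting without the trend called 0 of all genes, with 622 at an unadjusted p below 0.05. SS18 differed by 0.75 to 1.005 on the log2 scale when each library was left out, and by 0.88 to 0.89 otherwise. SS18L1 differed by 0.58 with a pseudocount of 10 and by 0.85 with 0.1, and was not tested at a mean of at least 100. Its unadjusted p was below 0.05 in 8 of the 14 alternatives that tested it and above 0.05 in 6, 5 of which left out a library, and its lowest value was 0.000597, without the variance trend. Of 134 comparisons for the 9 members, 124 kept direction and call and 10 changed sign around 0. When each library was left out, log2 fold changes ranged from -0.083 to 0.024 for SMARCA4, from -0.019 to 0.084 for SMARCA2, from -0.11 to 0.088 for SMARCB1, from -0.022 to 0.079 for ARID1A and from -0.067 to 0.017 for SMARCC2. SMARCB1 was at -0.0012 with quantile normalization. The cause was not tested.

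Same-numbered libraries had correlations of 0.0872 to 0.111 after subtraction of the group means, and all 6 libraries correlated best with their own number, a hint from the data and not from the design. As not every pair exceeded 0.1, the numbers were not taken as pairing. With the replicate block 26 genes were called against 19, and 0 of the members other than SS18, whose adjusted p was at least 0.883. With median mRNA lengths, 9 of 20 levels per kb moved by more than 1 SD, and SMARCC2 stood above SMARCB1 in both groups. Low depth limits SS18L1 most.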
